A study of Mus musculus with 24 samples.

Results

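The genes described here are 10 well known transcriptional targets of p53, the tumor suppressor encoded in the mouse by Trp53. They were chosen by name (Cdkn1a, Mdm2, Ccng1, Trp53inp1, Gadd45a, Sesn1, Bbc3, Bax, Btg2, and Phlda3). All 10 were present among the 56941 genes of the table, and all 10 passed the filter on low counts that left 13318 genes for testing. RNA sequencing (RNA-seq) measured them in muscle monolayers of C2C12, a line of mouse myoblasts whose cells join into multinucleated fibers. Every tissue carried the ChR2::tdTomato genotype, in which channelrhodopsin lets blue light trigger contraction, and every tissue was grown on a fibrin hydrogel and differentiated in medium with horse serum and IGF-1. Daily light lasted 30 min at a frequency of 1, 4, or 10 Hz, and control tissues were not illuminated, with 6 libraries in each of the 4 conditions and 24 in total. All tissues came from 1 engineered line, and the study's discussion describes spontaneous twitching in every condition, so control denotes muscle without light rather than muscle at rest.

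The p53 protein is a transcription factor that is kept scarce by the ubiquitin ligase Mdm2 and is stabilized by DNA damage, nucleolar stress, oxidative stress, and other insults. It binds response elements made of a pair of adjacent decamers and switches on genes that halt the cell cycle, repair DNA, limit oxidative damage, restrain growth signaling, or trigger apoptosis, along with Mdm2 itself as negative feedback. In muscle, several of these genes also answer to other regulators. Cdkn1a is induced by MyoD as myoblasts leave the cell cycle, and Gadd45a is induced in denervated and atrophying fibers through ATF4.

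Sequences near the transcription start sites were examined first, because a p53 response element close to the start is what links several of these genes to p53. The published consensus of the response element was searched on both strands in GRCm39, within 3000 bases of the start of the canonical GENCODE transcript, allowing at most 1 mismatch outside the conserved C and G of each decamer and at most 1 base between the decamers. Of 21770 protein-coding genes, 2.4% held such a match. Matches were found for 3 of the 10 members, Cdkn1a, Ccng1, and Trp53inp1, and are shown on the strand of the gene with both decamers in capitals and 10 flanking bases on each side. The Cdkn1a match lay 2836 bases upstream of the start at chr17:29309892-29309931. The first Ccng1 match lay 170 bases upstream at chr11:40646279-40646318, and the other lay in intron 1, 356 bases after the start, at chr11:40645753-40645792. The Trp53inp1 match lay 1300 bases upstream at chr4:11155102-11155142, had 0 mismatches, and had 1 base between its decamers.
Cdkn1a: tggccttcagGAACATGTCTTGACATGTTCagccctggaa
Ccng1 upstream: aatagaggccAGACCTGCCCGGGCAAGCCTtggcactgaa
Ccng1 intron 1: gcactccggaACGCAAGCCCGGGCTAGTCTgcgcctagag
Trp53inp1: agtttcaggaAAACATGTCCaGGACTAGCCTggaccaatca
A match describes letters in the genome and not binding, and the absence of a match in the other 7 members says only that these letters did not occur in this window. None of the 3 genes with a match passed the test in any comparison with control.

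The depth of each library and the spread between libraries both bear on the precision of these measurements. Library totals were 4.19 to 7.65 M counts (M, mega) in control, 4.09 to 15.2 M at 1 Hz, 7.55 to 11.5 M at 4 Hz, and 5.41 to 12.1 M at 10 Hz. The medians were 5.32, 7.38, 8.67, and 7.83 M in the same order, so depth also differed with condition, and its part was not tested. The least abundant member, Bbc3, was measured by 13 to 60 counts per library, whereas Cdkn1a was measured by 5215 to 19118. All 10 myotube markers and all 6 myoblast markers exceeded 1 CPM (counts per M of the library) at the median library, as did 3 of 5 fibroblast and 1 of 4 macrophage markers, and none of the 4 endothelial or 4 adipocyte markers did. The summed level of the 10 myotube markers was 5894 to 7529 CPM in control, 8877 to 13394 CPM at 1 Hz, 9908 to 15916 CPM at 4 Hz, and 6257 to 9840 CPM at 10 Hz. Small RNAs without poly(A) tails, which pass poly(A) selection only as a residue, took 99.1 to 169 CPM of the total in control, 15.5 to 70.2 CPM at 1 Hz, 18.3 to 51.1 CPM at 4 Hz, and 38.4 to 274 CPM at 10 Hz. Both measures separated every 1 Hz and every 4 Hz library from every control library, so their part in any difference between these conditions and control cannot be told apart from that of stimulation. The labels state that low-input samples were ribodepleted and do not say which.

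The members covered a wide span of abundance. On the TPM scale (transcripts per M), which divides by transcript length and permits comparison between genes, the control medians over 6 libraries were 1072 TPM for Cdkn1a, 519 for Gadd45a, 302 for Phlda3, 241 for Ccng1, and 241 for Mdm2. They were 144 TPM for Bax, 47.8 for Trp53inp1, 41.0 for Btg2, 14.6 for Sesn1, and 5.04 for Bbc3. The control libraries of neighbors in this order did not overlap, with the exceptions of Ccng1 with Mdm2 and Trp53inp1 with Btg2. Cdkn1a, which encodes the cyclin-dependent kinase inhibitor p21, ranked 156 among all 56941 genes by control median and made up 31.6% to 44.5% of the summed TPM of the 10 members over the 24 libraries. Within conditions, Trp53inp1 varied most between libraries (residual SD of 0.35 on the log2 CPM scale), followed by Bbc3 (0.30), and Mdm2 and Cdkn1a varied least (0.14 each).

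**Figure D1:**
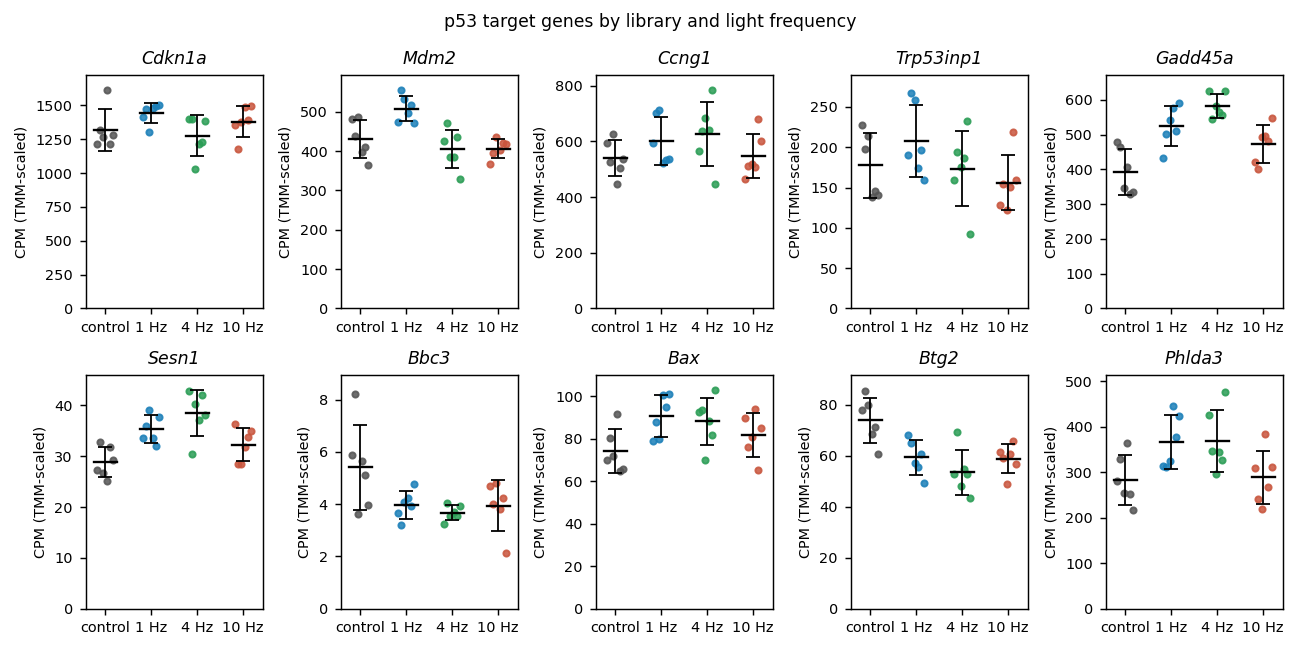
Level of each p53 target gene in CPM scaled by TMM (linear axes starting at 0) in the 6 libraries of each condition, with each point 1 library, the wide bar the mean, and the error bars the SD. On this scale the 6 Gadd45a libraries at 4 Hz lie above every control library, and the 6 Mdm2 libraries at 1 Hz lie above every library at 10 Hz, with the lowest (472 CPM) beside the highest at 4 Hz (471.6 CPM).

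Stimulated muscle was first compared with control to ask whether p53 target genes differed with daily light. No condition had light without contraction, so the parts of light exposure and of contraction cannot be told apart. In edgeR's quasi-likelihood test with Benjamini-Hochberg (BH) adjustment over 13318 genes, 6 of 10 members passed an adjusted p of 0.05 at 1 Hz (5 higher and 1 lower), beside 35.4% of all genes tested. At 4 Hz 5 of 10 passed (3 higher and 2 lower), beside 39.4% of all genes. At 10 Hz 0 of 10 passed, beside 4.89% of all genes, with 3 members at an unadjusted p below 0.05 and 1 member, Btg2, called by DESeq2. With backgrounds of this size, nothing particular to the members is read from these counts. On the log2(TPM + 1) scale with limma 2 rose and 1 fell at 1 Hz and 1 rose and 2 fell at 4 Hz, beside 27.7% and 38% of all genes called. With total count scaling 1 rose and 2 fell at 1 Hz and 2 rose and 2 fell at 4 Hz, beside 36.7% and 42.3%. The median log2 fold change of the 10 members was 0.23 at 1 Hz, 0.09 at 4 Hz, and 0.02 at 10 Hz, against -0.01 over all genes in each comparison. Members whose stimulated and control libraries did not overlap numbered 0 at 1 Hz, 1 at 4 Hz, and 0 at 10 Hz, beside 13.1%, 16.6%, and 2.58% of all genes. The 3 comparisons share the control libraries. In bulk RNA, fewer cells of a type and less RNA per cell cannot be told apart.

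Gadd45a, which encodes a stress sensor that binds PCNA and p21 and acts in growth arrest and DNA repair, had the smallest adjusted p among the members at 1 and 4 Hz. Its level in control was 328 to 477 CPM with a median of 377. It was 431 to 591 CPM at 1 Hz (median 526), 543 to 625 CPM at 4 Hz (median 573), and 400 to 548 CPM at 10 Hz (median 488). All 6 libraries at 4 Hz lay above every control library, as did those of 8.68% of all genes, whereas 1 Hz and 10 Hz overlapped control. In TPM the 4 Hz and control libraries overlapped, with a lowest of 687 TPM at 4 Hz and a highest of 696 TPM in control. Gadd45a rose by 0.57 ± 0.10 (log2 fold change ± SE, adjusted p = 6.59e-05) at 4 Hz and by 0.42 ± 0.10 (adjusted p = 0.00165) at 1 Hz, with 6 of 6 libraries above the control mean in each. At 10 Hz the value was 0.27 ± 0.10 (adjusted p = 0.105), also with 6 of 6 libraries above the control mean. Of the exonic bases of Gadd45a, 55.8% are shared in the GENCODE annotation with the antisense gene E230016M11Rik, and no source used here says whether the counting took strand into account. E230016M11Rik reached at most 4.98 CPM in any library, far below Gadd45a.

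Btg2, an antiproliferative gene of the BTG/Tob family, moved the other way. It was measured at 60.7 to 85.4 CPM in control (median 74.9), 49.3 to 68.2 CPM at 1 Hz (median 59.2), 43.3 to 69.5 CPM at 4 Hz (median 52.9), and 49.1 to 65.9 CPM at 10 Hz (median 59.8). Stimulated libraries were lower, and 5 of 6 libraries at 4 Hz lay below every control library. Btg2 fell by 0.32 on the log2 scale (SE 0.10, adjusted p = 0.0163) at 1 Hz and by 0.47 (SE 0.10, adjusted p = 0.000836) at 4 Hz, with 6 of 6 libraries below the control mean at each frequency. At 10 Hz the log2 fold change was -0.33 ± 0.10 (adjusted p = 0.0561), again with 6 of 6 libraries below the control mean. This value passed under 5 of 11 other settings of scaling, filter, or model, which were total count scaling, DESeq2, limma on log2(TPM + 1) and on log2(TPM + 0.1), and a block for replicate number (adjusted p down to 0.0174). The 1 Hz call was lost without control replicate 2 or 1 Hz replicate 6 (adjusted p of at most 0.0554).

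Cdkn1a, the classical effector of p53 in G1 arrest, did not pass the edgeR test at any frequency. Its control libraries ranged from 1212 to 1616 CPM (median 1275), the 1 Hz libraries from 1302 to 1500 CPM (median 1475), the 4 Hz libraries from 1029 to 1400 CPM (median 1310), and the 10 Hz libraries from 1175 to 1496 CPM (median 1382). The 4 conditions overlapped throughout. The log2 fold change against control was 0.13 at 1 Hz (95% interval -0.04 to 0.30, adjusted p = 0.229), -0.05 at 4 Hz (-0.22 to 0.12, adjusted p = 0.689), and 0.07 at 10 Hz (-0.10 to 0.24, adjusted p = 0.709). At 4 Hz it was called with limma on log2(TPM + 1) and on log2(TPM + 0.1), with a value of -0.22 in both (adjusted p = 0.0474 and 0.0480).

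Ccng1, which encodes cyclin G1, a partner of PP2A that acts on Mdm2, was measured at 447 to 625 CPM in control (median 531), 521 to 712 CPM at 1 Hz (median 566), 446 to 783 CPM at 4 Hz (median 639), and 465 to 680 CPM at 10 Hz (median 515). The 4 Hz libraries included both the lowest and the highest value of all 24. The log2 fold changes were 0.16, 0.22, and 0.02 at 1, 4, and 10 Hz (adjusted p = 0.312, 0.143, and 0.948). Its overlap with the opposite-strand gene Nudcd2 covers 2.6% of its exonic bases.

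Mdm2, the ubiquitin ligase that closes the negative feedback loop on p53, was measured at 365 to 486 CPM in control (median 425), 472 to 555 CPM at 1 Hz (median 508), 330 to 472 CPM at 4 Hz (median 405), and 367 to 436 CPM at 10 Hz (median 411). The 1 Hz libraries were the highest, with 4 of 6 above every control library. Mdm2 rose by 0.24 ± 0.08 at 1 Hz (adjusted p = 0.0236, 6 of 6 libraries above the control mean). At 4 Hz (-0.09 ± 0.08, adjusted p = 0.421) and 10 Hz (-0.08 ± 0.08, adjusted p = 0.614) it did not pass. The 1 Hz call against control was lost without control replicate 6 or 1 Hz replicate 2 (adjusted p of at most 0.0619), with total count scaling (0.16, adjusted p = 0.130), and with the log2 share of small RNAs as a covariate (0.13, adjusted p = 0.780).

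Sesn1, which encodes sestrin 1, a leucine- and stress-responsive inhibitor of mTORC1, stood at 25.2 to 32.9 CPM in control (median 28.3), 32.0 to 39.2 CPM at 1 Hz (median 34.8), 30.5 to 42.8 CPM at 4 Hz (median 39.2), and 28.4 to 36.4 CPM at 10 Hz (median 32.8). At 1 Hz and at 4 Hz 5 of 6 libraries lay above every control library. Sesn1 rose by 0.30 ± 0.09 at 1 Hz (adjusted p = 0.0143) and by 0.42 ± 0.09 at 4 Hz (adjusted p = 0.000939), with 6 of 6 libraries above the control mean in each. The 10 Hz value was 0.17 ± 0.09 (adjusted p = 0.320, 4 of 6 libraries above the control mean). On the log2(TPM + 1) scale with limma neither call was made, and with total count scaling the 1 Hz call was lost (adjusted p = 0.0662).

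Trp53inp1, a regulator of stress-induced apoptosis and autophagy that also acts as a cofactor of p53, had the widest scatter. Values ran from 139 to 228 CPM in control (median 172), from 160 to 268 CPM at 1 Hz (median 193), from 92.3 to 232 CPM at 4 Hz (median 181), and from 123 to 219 CPM at 10 Hz (median 153). All conditions overlapped. The log2 fold changes were 0.22, -0.04, and -0.19 at 1, 4, and 10 Hz, each with an SE of 0.18, and none passed (adjusted p = 0.340, 0.887, and 0.585).

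Bax and Bbc3 stand for the apoptotic arm. In the edgeR fit the log2 fold changes were positive for Bax and negative for Bbc3 at each frequency. Of these, only Bax at 1 Hz and Bbc3 at 4 Hz passed. Bax encodes the effector that permeabilizes the mitochondrial outer membrane. It was measured at 64.8 to 91.7 CPM in control (median 71.1), 79.0 to 101 CPM at 1 Hz (median 91.5), 69.9 to 103 CPM at 4 Hz (median 90.2), and 65.4 to 94.2 CPM at 10 Hz (median 82.9). The stimulated groups overlapped control at each frequency. Bax rose by 0.29 ± 0.10 at 1 Hz (adjusted p = 0.0316, 6 of 6 libraries above the control mean), and its values of 0.25 ± 0.10 at 4 Hz (adjusted p = 0.0570, 5 of 6 libraries) and 0.14 ± 0.10 at 10 Hz (adjusted p = 0.470, 5 of 6 libraries) did not pass. Bax at 4 Hz did not differ from Bax at 1 Hz by the test (-0.04, 95% interval -0.25 to 0.17).

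Bbc3 encodes PUMA, a BH3-only protein that neutralizes BCL2 proteins and so frees Bax. It was the scarcest member, at 3.63 to 8.22 CPM in control (median 5.37), 3.21 to 4.78 CPM at 1 Hz (median 4.01), 3.25 to 4.03 CPM at 4 Hz (median 3.63), and 2.12 to 4.80 CPM at 10 Hz (median 4.12). Stimulated libraries clustered at the lower edge of the control range, and 3 of 6 at 4 Hz lay below every control library. Bbc3 fell by 0.56 at 4 Hz (SE 0.19, adjusted p = 0.0242, 6 of 6 libraries below the control mean), and its log2 fold change was -0.42 ± 0.19 at 1 Hz (adjusted p = 0.0912) and -0.45 ± 0.19 at 10 Hz (adjusted p = 0.174). The 4 Hz call was lost without control replicate 2 (log2 fold change -0.38, adjusted p = 0.114) and was lost without a filter on low counts and in the 3 limma fits (adjusted p of at most 0.211).

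Phlda3, which encodes a pleckstrin homology domain protein that competes with AKT for membrane lipids, was measured at 217 to 364 CPM in control (median 268), 311 to 445 CPM at 1 Hz (median 352), 296 to 476 CPM at 4 Hz (median 345), and 219 to 383 CPM at 10 Hz (median 288). The 1 Hz and 4 Hz libraries sat in the upper part of the control range or above it. Phlda3 rose by 0.37 ± 0.14 at 1 Hz (adjusted p = 0.0395) and by 0.38 ± 0.14 at 4 Hz (adjusted p = 0.0312), with 6 of 6 libraries above the control mean in each, and stood at 0.03 ± 0.14 at 10 Hz (adjusted p = 0.944, 3 of 6 libraries). Leaving out any 1 of 7 libraries at 1 Hz and any 1 of 5 at 4 Hz ended the Phlda3 call (adjusted p of at most 0.107 and 0.0860), and any 1 of 7 ended that of Bax at 1 Hz (at most 0.0778). Both Phlda3 calls and that of Bax were also lost with total count scaling and in the 3 limma fits.

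**Figure D2:**
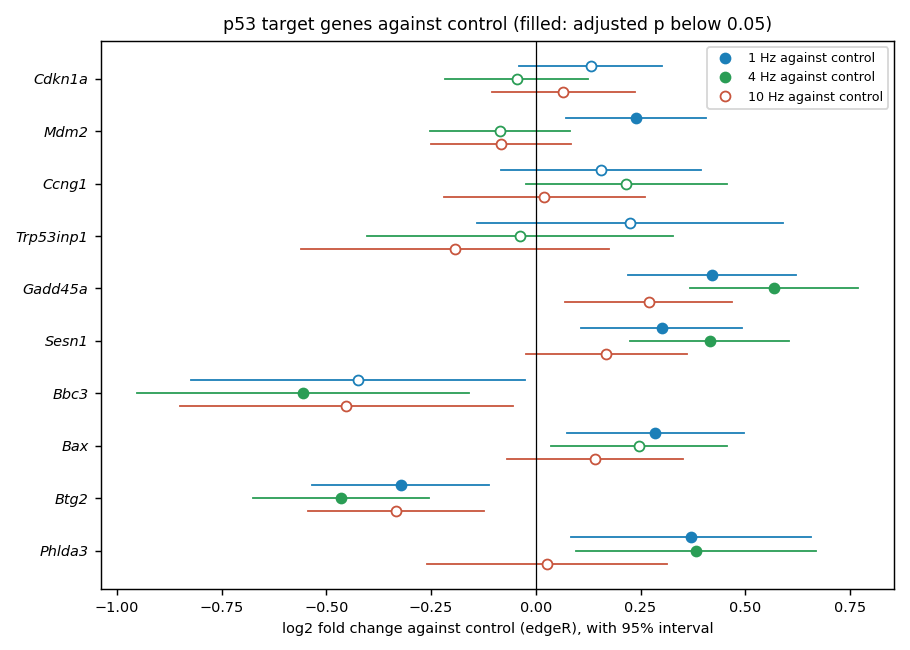
The log2 fold change against control of each p53 target gene at 1, 4, and 10 Hz from edgeR, with its 95% interval (horizontal line), filled where the adjusted p was below 0.05. Gadd45a and Sesn1 lie to the right of 0 at 1 and 4 Hz, Btg2 and Bbc3 lie to the left at every frequency, and no 10 Hz point is filled.

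The library composition moved with these differences. When the log2 share of the small RNAs without poly(A) tails was added to the edgeR fit, 0 of 10 members passed at 1, 4, or 10 Hz against control, with 0, 1, and 3 at an unadjusted p below 0.05. The genes called overall then made up 0.00751%, 2.3%, and 4.63% of those tested. The log2 fold change of Gadd45a became 0.07 at 1 Hz and 0.23 at 4 Hz (adjusted p = 0.907 and 0.381). The share did not overlap between control and either 1 or 4 Hz, so the fit rests on libraries that differ in both. The 10 Hz libraries spread over a wide range of shares, and Gadd45a at 10 Hz was highest (548 CPM) in the library with the smallest share and lowest (400 CPM) in the library with the largest. Sesn1 was also lowest (28.4 CPM) at the largest share, but highest (36.4 CPM) at a share of 178 CPM. Btg2 was highest (65.9 CPM) at a share of 67.6 CPM and lowest (49.1 CPM) at 112 CPM. A relation of level to share within 10 Hz was not tested.

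**Figure D3:**
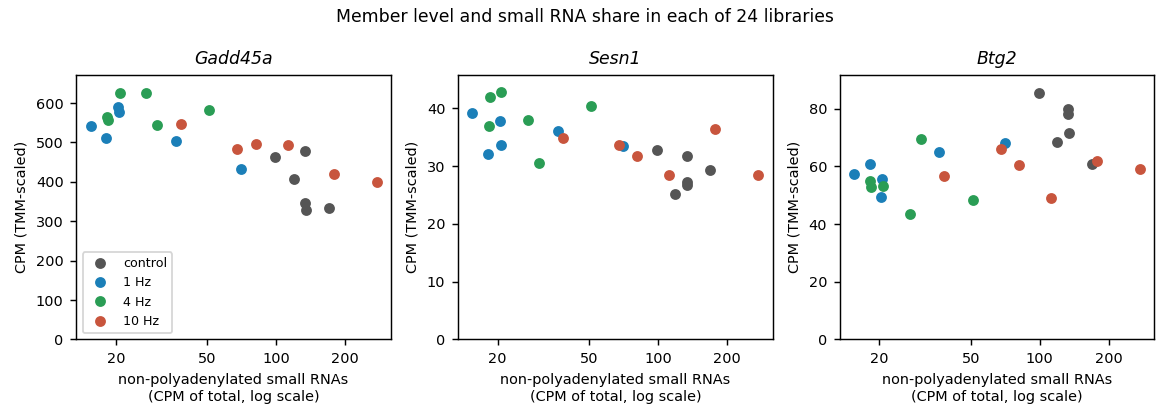
Level of Gadd45a, Sesn1, and Btg2 (CPM scaled by TMM, linear axes starting at 0) against the summed share of small RNAs without poly(A) tails (CPM of total, log axis) in each of 24 libraries, colored by condition. The 1 and 4 Hz libraries lie to the left of every control library, and the 10 Hz libraries spread across both ranges.

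Frequencies were then compared with each other, a contrast in which the small RNA share of 1 and 4 Hz overlapped. Mdm2 was lower at both 4 and 10 Hz than at 1 Hz. The lowest 1 Hz library held 472 CPM against a highest of 471.6 CPM at 4 Hz and 436 CPM at 10 Hz. The 1 and 10 Hz libraries did not overlap on any scale used, whereas those of 1 and 4 Hz lay less than 1 CPM apart in TMM-scaled CPM and overlapped in TPM, with a lowest of 268 TPM at 1 Hz and a highest of 273 TPM at 4 Hz, and also with total count scaling. Among all genes, 5.7% did not overlap between 4 and 1 Hz (3.33% lower) and 13.2% between 10 and 1 Hz (7.49% lower). The log2 fold change of Mdm2 was -0.33 ± 0.08 from 1 to 4 Hz (adjusted p = 0.00990) and -0.32 ± 0.08 from 1 to 10 Hz (adjusted p = 0.00310), lower in 6 of 6 libraries each time. It was the single member past the test in each of these comparisons, where 12.3% and 36.3% of all genes passed. The difference between 4 and 1 Hz passed under each of the 11 alternative settings that gave it a value and without each of the 12 libraries (adjusted p of at most 0.0380 and 0.0294), the small RNA covariate included, whereas the difference between 10 and 1 Hz was lost with that covariate (adjusted p = 0.304).

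Between 10 and 4 Hz, 2 of 10 members passed beside 22.8% of all genes, and 0 members were free of overlap beside 6.2% of all genes. Gadd45a was lower at 10 Hz, with a log2 fold change of -0.30 ± 0.10 (adjusted p = 0.0266), with 5 of 6 libraries below every 4 Hz library, and the call was lost without 10 Hz replicate 1 or 2 (adjusted p of at most 0.0765). It was also lost under 5 of 11 settings, which were total count scaling, the 3 limma fits, and the small RNA covariate (adjusted p of at most 0.996). Sesn1 was lower by -0.25 ± 0.09 (adjusted p = 0.0488), and this call was lost under 9 of 11 settings and without any 1 of 9 libraries. For the 8 other members and this comparison, values lay between -0.36 (Phlda3) and 0.13 (Btg2). At 10 Hz against 1 Hz all 10 members had negative log2 fold changes, from -0.42 (Trp53inp1) to -0.01 (Btg2), of which Mdm2 alone passed.

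The machinery upstream of these targets was examined next. Trp53 itself was measured at 37.7 to 51.3 CPM in control (median 43.1), 35.0 to 48.0 CPM at 1 Hz (median 42.2), 37.6 to 45.4 CPM at 4 Hz (median 39.7), and 35.9 to 51.1 CPM at 10 Hz (median 43.1). The conditions overlapped, and its log2 fold changes of -0.08, -0.11, and 0.00 did not pass (adjusted p = 0.557, 0.360, and 0.998). RNA level does not report the stability or activity of the p53 protein, which was not measured. Mdm4, the partner of Mdm2 that masks the transactivation domain of p53, was at 0.23, 0.05, and -0.09 at 1, 4, and 10 Hz against control, none of which passed, and was lower at 10 Hz than at 1 Hz (-0.32 ± 0.10, adjusted p = 0.0168), a call lost without 1 Hz replicate 3 (-0.26, adjusted p = 0.0564).

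Ppm1d, which encodes the phosphatase WIP1 that switches p53 signaling off and is itself a p53 target, fell in all 3 comparisons with control. It stood at 16.3 to 25.8 CPM in control (median 20.1), 13.3 to 17.5 CPM at 1 Hz (median 16.0), 11.5 to 16.4 CPM at 4 Hz (median 13.4), and 12.6 to 17.8 CPM at 10 Hz (median 16.1). The ranges overlapped only at the lower end of the control values. Ppm1d fell by 0.39 at 1 Hz (adjusted p = 0.00989), by 0.62 at 4 Hz (adjusted p = 0.000177), and by 0.40 at 10 Hz (adjusted p = 0.0422) on the log2 scale. The 10 Hz call was lost without any 1 of 7 libraries (adjusted p of at most 0.145).

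Among the 16 tested regulators of p53, which include Trp53, Mdm4, and Ppm1d, 3 rose and 3 fell at 1 Hz. The shares of all genes there were 18.1% higher and 17.3% lower. At 4 Hz 1 regulator rose and 4 fell, beside 19.2% and 20.2%. At 10 Hz 0 rose and 1 fell, beside 2.67% and 2.22%. Trp63, the p53 paralog best known from epithelium, rose by 1.21 ± 0.25 at 1 Hz (adjusted p = 0.000520) and by 1.36 ± 0.24 at 4 Hz (adjusted p = 0.000105). Its level was low, at 1.86 to 5.11 CPM in control, 5.78 to 9.32 CPM at 1 Hz, and 6.90 to 9.43 CPM at 4 Hz, and neither stimulated group overlapped control. At 1 Hz Ppp1r13l, which encodes the p53 inhibitor iASPP, rose by 0.60 and Kat5, an acetyltransferase, by 0.22, whereas the checkpoint kinase Chek1 fell by 0.79 and the coactivator Ep300 by 0.30 on the log2 scale. At 4 Hz Ep300 fell by 0.46, the damage kinase Atm by 0.35, and the deubiquitinase Usp7 by 0.31. The calls of Chek1 and Kat5 at 1 Hz and of Atm at 4 Hz were lost without any 1 of 3, 8, and 6 libraries.

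A further 40 targets of p53, all of them tested, gave a broader view. At 1 Hz 16 rose and 2 fell, with a median log2 fold change of 0.27, beside 18.1% of all genes higher and 17.3% lower. At 4 Hz 12 rose and 7 fell, with a median of 0.10, beside 19.2% and 20.2%. At 10 Hz 1 rose and 2 fell, with a median of -0.09, beside 2.67% and 2.22%. The median over all genes was -0.01 each time. At 1 Hz 11 rose and 3 fell of 39 on the log2(TPM + 1) scale with limma, whereas the 4 Hz median became 0.01 with total count scaling and -0.18 on the log2(TPM + 1) scale with limma, where 5 rose and 12 fell among 39 genes. With the small RNA covariate 0 rose and 0 fell at 1 Hz (median 0.11), 0 rose and 1 fell at 4 Hz (median 0.02), and 0 rose and 2 fell at 10 Hz (median -0.11).

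At 1 Hz the largest increases in this list were those of Lif, a cytokine of the IL-6 family (1.20), Psrc1, a spindle protein (1.00), and the death receptor Fas (0.99). The decreases were those of Ddb2, a sensor of ultraviolet damage (-1.08), and the long non-coding RNA Trp53cor1, known as lincRNA-p21 (-0.91). At 4 Hz Fas (1.45), Lif (1.42), and Perp (0.91), a desmosomal protein, rose most, and the polo-like kinase Plk2 (-0.62), Ddb2 (-0.52), and Sesn2 (-0.51) fell most. Lif, Perp, and Trp53cor1 were scarce, with control medians of 1.61, 1.91, and 3.27 TPM. The Ddb2 call at 4 Hz was lost without any 1 of 6 libraries and that of Sesn2 without any 1 of 4. Sesn2 stood at 91.7 CPM in control replicate 2 against a control median of 43.5 CPM, and without that library its values were 0.37 at 1 Hz (adjusted p = 0.0486), -0.24 at 4 Hz (0.207), and -0.35 at 10 Hz (0.219). Fas was measured at 6.97 to 12.7 CPM in control, 16.5 to 23.4 CPM at 1 Hz, and 20.6 to 29.1 CPM at 4 Hz, with no overlap of either stimulated group with control in CPM, whereas in TPM both overlapped control. At 10 Hz Lif rose by 0.89, Sesn2 fell by 0.61, and Apaf1, the core of the apoptosome, fell by 0.49 on the log2 scale, and the calls of Lif and Sesn2 were lost without any 1 of 6 and 8 libraries.

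The same list was compared between frequencies. At 4 Hz against 1 Hz 1 of the 40 was higher and 9 were lower (5.71% and 6.56% of all genes), and with the small RNA covariate the counts were 2 and 10 and the genes called overall 12.9%. Plk2 (-0.62), Sesn2 (-0.61), and Slc19a2, a thiamine transporter (-0.57), were lowest, and Rps27l, a ribosomal protein gene, was higher (0.36). At 10 Hz against 1 Hz 3 were higher and 18 lower (17.7% and 18.5% of all genes), led by Psrc1 (-1.05), Ptprv (-0.91), and Cyfip2 (-0.88), with Ddb2 (0.86), Trp53cor1 (0.86), and Tigar (0.33) higher. At 10 Hz against 4 Hz 1 was higher and 10 lower (10.9% and 11.9% of all genes), led by Fas (-1.21), Psrc1 (-0.81), and Cyfip2 (-0.66), with Plk2 (0.44) higher, and on the log2(TPM + 1) scale 2 were higher and 6 lower. With the small RNA covariate 0 were higher and 4 lower at 10 Hz against 1 Hz, with 2.43% of all genes called, and 0 and 0 at 10 Hz against 4 Hz, with 0 of 13318 genes called and 1004 at an unadjusted p below 0.05. Calls lost without at least 1 library at 4 Hz against 1 Hz were those of Sesn2, Rps27l, Tnfrsf10b, Plk3, Ephx1, Tnfrsf1a, and Cpt1c. At 10 Hz against 1 Hz they were those of Ptprv, Trp53cor1, Tigar, and Eda2r. At 10 Hz against 4 Hz they were those of Aen, Eda2r, Dcxr, and Ephx1.

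**Figure D4:**
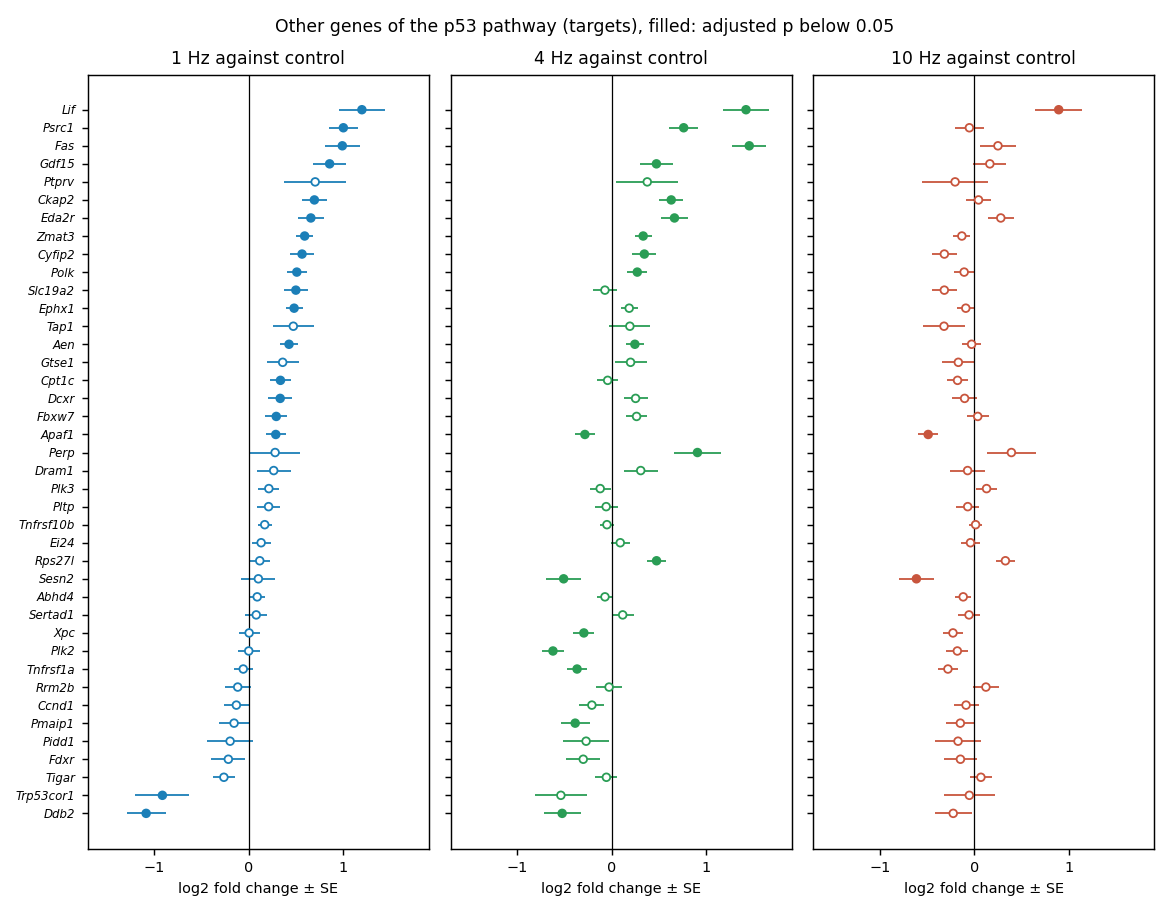
The log2 fold change against control of 40 other p53 targets at 1, 4, and 10 Hz (panels from left to right) with the SE from edgeR, ordered by their value at 1 Hz and filled where the adjusted p was below 0.05. Of these genes 16 rose and 2 fell at 1 Hz, 12 rose and 7 fell at 4 Hz, and 1 rose and 2 fell at 10 Hz.

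Paralogs of the members served to ask whether close relatives moved with them. Of 15 tested, 1 rose and 3 fell at 1 Hz, beside 18.1% of all genes higher and 17.3% lower. At 4 Hz 5 rose and 3 fell, beside 19.2% and 20.2%. At 10 Hz 0 rose and 2 fell, beside 2.67% and 2.22%. With total count scaling 3 rose and 7 fell at 4 Hz, and on the log2(TPM + 1) scale 1 rose and 6 fell. Among relatives of Gadd45a, Gadd45b went the other way, with a fall of 0.37 at 1 Hz and of 0.83 at 4 Hz on the log2 scale, and all libraries of both groups lay below every control library. Gadd45b stood at 72.4 to 84.5 CPM in control, 44.0 to 69.0 CPM at 1 Hz, and 32.7 to 59.5 CPM at 4 Hz. Gadd45g was at 0.34 at 1 Hz and rose by 0.40 at 4 Hz.

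Among relatives of Sesn1, Sesn2 was at 0.10 at 1 Hz, -0.51 at 4 Hz, and -0.61 at 10 Hz, and both calls were lost without control replicate 2, as given above. Sesn3 was at 0.32 at 1 Hz, rose by 0.41 at 4 Hz, and was at -0.19 at 10 Hz. Among relatives of Btg2, Btg1 fell by 0.58 at 4 Hz and by 0.50 at 10 Hz, Btg3 by 0.53 at 1 Hz, and Tob2 by 0.37 at 1 Hz, while Tob1 did not pass (-0.11, -0.18, and 0.03 at 1, 4, and 10 Hz). The kinase inhibitor Cdkn1c, a relative of Cdkn1a, rose by 1.06 at 4 Hz, and Cdkn1b did not pass (0.03, 0.31, and -0.02). Trp53inp2, an autophagy factor, rose by 0.28 at 1 Hz and by 0.37 at 4 Hz, and Ccng2 rose by 0.37 at 4 Hz. Ccni (0.16, 0.03, and -0.19), Phlda1 (0.10, -0.24, and -0.03), and Mdm4 did not pass. Apart from those of Sesn2, the paralog calls against control were not tried with single libraries left out.

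The BCL2 family surrounds Bax and Bbc3. Of 12 tested, 1 rose and 2 fell at 1 Hz, beside 18.1% of all genes higher and 17.3% lower. At 4 Hz 2 rose and 4 fell, beside 19.2% and 20.2%. At 10 Hz 1 rose and 0 fell, beside 2.67% and 2.22%. On the log2(TPM + 1) scale 0 of 11 rose, with 2, 5, and 1 lower at 1, 4, and 10 Hz. Bmf, a BH3-only protein with a control median of only 1.72 TPM, fell by 1.54 at 1 Hz and by 1.05 at 4 Hz on the log2 scale. The effector Bak1 fell by 0.35 and 0.29, whereas the effector Bok rose by 0.39 and 0.49. At 4 Hz Bid, an activator of Bax, rose by 0.41, the pro-survival gene Bcl2l1 fell by 0.43, and Pmaip1, which encodes NOXA, fell by 0.38. At 10 Hz Bid rose by 0.33. Without any 1 of several libraries the calls were lost of Bak1 and Bok at 1 Hz (4 and 3 libraries), of Bak1 and Pmaip1 at 4 Hz (8 and 9), and of Bid at 10 Hz (5).

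Of 29 tested cell cycle genes, 1 rose and 6 fell at 1 Hz, beside 18.1% of all genes higher and 17.3% lower. At 4 Hz 3 rose and 8 fell, beside 19.2% and 20.2%. At 10 Hz 0 rose and 1 fell, beside 2.67% and 2.22%. At 1 Hz Mcm5 (-0.80), Ccne1 (-0.58), and Mcm3 (-0.56), which act in DNA replication and its onset, fell most, and E2f1 (0.30) rose. At 4 Hz Mcm5 (-1.01), Mcm4 (-0.68), and Mcm3 (-0.64) fell most, and Mki67 (1.28), Ccna2 (1.25), and Top2a (0.69) rose. Their summed level was 498 to 564 CPM in control, 473 to 511 CPM at 1 Hz, 475 to 541 CPM at 4 Hz, and 500 to 572 CPM at 10 Hz. At 10 Hz Mcm4 fell by 0.36 on the log2 scale. On the log2(TPM + 1) scale 0 of 23 rose at any frequency, with 4, 10, and 1 lower at 1, 4, and 10 Hz, and with total count scaling 0 rose and 11 fell at 1 Hz. Genes averaging below 1 TPM were left out of that TPM fit, Mki67 and Ccna2 among them. Both were scarce, with medians of 0.152 and 0.872 TPM in control and of 0.184 and 1.04 TPM at 4 Hz. Calls lost without at least 1 library were those of Mcm5, E2f1, and Cdk1 at 1 Hz and of Mcm4 at 10 Hz. At 4 Hz they were those of Mki67, Ccna2, Top2a, Cdk1, Aurka, E2f1, and Ccne1. Mki67 at 4 Hz was at 0.86 (edgeR adjusted p = 0.130) without 4 Hz replicate 6.

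Genes whose profile over the 24 libraries was most like that of Cdkn1a were Vat1, Dusp27, and R3hdm4, with root mean square differences of 0.11 in centered log2 CPM against a median of 0.32 over all genes. For Mdm2 they were Rabgef1 (0.11), Slc30a1 (0.11), and Rnf19a (0.12), against a median of 0.33.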

How the data were processed

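By the authors' methods, poly(A) RNA was selected, directional libraries were prepared, and both read ends were sequenced on a Singular G4. The labels add that low-input samples, which are not named, were ribodepleted. The authors ran the nf-core/rnaseq pipeline on GRCm39 with Ensembl gene models of an unstated release. The submitters' processing notes name STAR, Salmon, BWA 0.7.12-r1039, and bedtools 2.25.0. The authors deposited a table of Salmon's estimated counts (expected counts) without normalization, in which 6.62% to 10.6% of a library's values were not whole, and another of TPM, normalized by them for transcript length and depth.

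Estimated counts were rounded. Genes kept by filterByExpr (13318, with 99.8% of counts) were tested with TMM scaling and glmQLFTest in edgeR 4.0.16 (limma 3.58.1, R 4.3.3), in 1 fit of 24 libraries with condition as the only factor, and passed at a BH adjusted p below 0.05. SE and 95% intervals come from that fit. CPM use TMM-scaled library sizes unless given as of the total. Labels do not say whether replicates are separate cultures, and the study describes them as biological replicates in 24-well plates. The p-values measure the spread between these libraries of 1 engineered line. Groups and replicate numbers came from the sample titles. Of 60 pairs of libraries within a condition, none agreed within sampling noise (chi-square per gene of at least 3.31).

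The 10 members and all gene lists were chosen with earlier results of these data known. Named were all members, Trp53, Mdm4, Ppm1d, every tested paralog, up to 3 genes each way with the largest change in each list, and the 3 genes most like Cdkn1a and Mdm2. E230016M11Rik, Nudcd2, and the Gadd45b libraries were added after values were seen, as were the settings of the sequence search. Sesn2, Pmaip1, and Mdm4 are each in 2 lists. Positions, exons, and sequences are from GENCODE M39 on GRCm39.

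Alternatives were DESeq2 size factors, total count scaling, no filter, a mean of at least 5 CPM, DESeq2 1.42.0, limma on log2(TPM + 1) or log2(TPM + 0.1) for genes averaging 1 TPM or more, limma on log2(TPM + 1) unfiltered, fits of the 12 libraries of a comparison alone, a block for replicate number, the log2 share of small RNAs as a covariate (25 of 30 names found), an added absolute log2 fold change of 0.5, and leaving out each library. On the log2(TPM + pseudocount) scale changes of low genes are understated. Data were simulated for 1 Hz against control with 200 changed genes. There edgeR recovered 85% with 2.86% of calls false (13028 genes), DESeq2 86.5% with 4.95% (13318), and limma 85.5% with 1.16% (13085). Recovery of differences as small as those of the members was not tested.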

Additional observations from a re-analysis of the deposited data

Results flagged for a closer look

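In each of the 4 conditions, the 6 libraries of each member were examined for a value that stands apart from the rest. Of 40 such groups, 2 held one, and chance gives about 1 in 20 groups. Cdkn1a in control replicate 4 stood at 1616 CPM, above a next value of 1318 CPM. Without that library the log2 fold change of Cdkn1a against control was 0.20 at 1 Hz (edgeR adjusted p = 0.0544), 0.02 at 4 Hz (0.850), and 0.13 at 10 Hz (0.368), beside 0.13, -0.05, and 0.07 with it. Bbc3 in 10 Hz replicate 6 stood at 2.12 CPM, below a next value of 3.82 CPM.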

How the results depend on the processing

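With the number of members past the test as the measure, the counts at 1, 4, and 10 Hz against control were 6, 5, and 0. They became 3, 4, and 1 with total count scaling, 3, 3, and 1 with limma on log2(TPM + 1) and on log2(TPM + 0.1), 3, 2, and 0 with limma without a filter, 6, 6, and 1 with DESeq2, and 0, 0, and 0 with the small RNA covariate. With an added absolute log2 fold change of 0.5 they were 0, 2, and 0, with Gadd45a and Bbc3 counted at 4 Hz, beside 18.3%, 20.1%, and 1.86% of all genes. All genes called made up 36.7%, 42.3%, and 5.56% with total count scaling and 27.7%, 38%, and 5.44% with limma on log2(TPM + 1). They made up 10.8%, 15.3%, and 1.37% with limma without a filter, and 36.6%, 40.3%, and 7.4% with DESeq2. With the small RNA covariate they made up 0.00751%, 2.3%, and 4.63%. Between frequencies the counts were 1 at 4 Hz against 1 Hz, 1 at 10 Hz against 1 Hz, and 2 at 10 Hz against 4 Hz. They became 2, 3, and 0 with limma at either pseudocount, 2, 2, and 0 with limma without a filter, 1, 2, and 3 with DESeq2, 1, 3, and 2 with no filter, 1, 1, and 0 with total count scaling, 1, 1, and 1 with a mean of at least 5 CPM, 1, 3, and 1 with only the 12 libraries compared, 1, 0, and 0 with the small RNA covariate, and 0, 0, and 0 with the added fold change. In the same order, all genes called made up 12.5%, 26.3%, and 15.9% with limma on log2(TPM + 1) and 3.84%, 9.6%, and 4.92% unfiltered. They made up 15%, 37.8%, and 24.8% with DESeq2 and 3.06%, 14%, and 8.12% with no filter. Total count scaling gave 12.2%, 36.5%, and 23.7%, and at least 5 CPM gave 16%, 40%, and 23.9%. The 12 libraries gave 12.7%, 35.1%, and 19.2%, and the covariate 12.9%, 2.43%, and 0%. The added fold change gave 3%, 17.9%, and 11%. Apart from fewer libraries, the covariate, and the added threshold, the cause of the changed counts was not tested. Over all genes the median log2 difference, -0.01 at each frequency against control with TMM, was -0.08 and -0.11 with total count scaling at 1 and 4 Hz and -0.06, -0.16, and -0.09 on the log2(TPM + 1) scale at 1, 4, and 10 Hz. The filter of 5 CPM left out Bbc3.

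Leaving out each library gave 3 to 6 members at 1 Hz, 4 to 6 at 4 Hz, 0 to 1 at 10 Hz, 1 to 1 at 4 Hz against 1 Hz, 1 to 2 at 10 Hz against 1 Hz, and 0 to 2 at 10 Hz against 4 Hz. The 1 Hz count was 3 without control replicate 6 or 1 Hz replicate 6. The calls of Bax and Phlda3 at 1 Hz were each lost without control replicate 1, 3, 5, or 6 or 1 Hz replicate 4, 5, or 6, and that of Phlda3 at 4 Hz without control replicate 3, 5, or 6 or 4 Hz replicate 1 or 6 (adjusted p of at most 0.0778, 0.107, and 0.0860). That of Sesn1 at 10 Hz against 4 Hz was lost without 4 Hz replicate 1, 3, 4, 5, or 6 or 10 Hz replicate 2, 3, 4, or 5 (at most 0.117). Calls were gained for Bbc3 at 1 Hz without control replicate 3 (adjusted p = 0.0437), for Ccng1 at 4 Hz without 4 Hz replicate 6 (0.0283), for Bax at 4 Hz without control replicate 2 or 4 or 4 Hz replicate 3 or 5 (at least 0.0154), and for Btg2 at 10 Hz without control replicate 6 (0.0282). Calls of Gadd45a and Sesn1 at 1 and 4 Hz, of Btg2 at 4 Hz, and of Mdm2 between frequencies were kept without each library. Of 149 calls of regulators, other targets, BCL2 family, and cell cycle genes over the 6 comparisons, 65 were lost without at least 1 library. Paralogs outside these lists were not tried in this way.

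Directions turned only for values that had not passed. Cdkn1a at 4 Hz was called with limma at either pseudocount and Btg2 at 10 Hz under 5 of 11 settings. Against control, the log2 fold change of Cdkn1a at 1 Hz became -0.0547 with the small RNA covariate, and at 10 Hz it became -0.0408, -0.0409, and -0.0408 with limma on log2(TPM + 1), on log2(TPM + 0.1), and without a filter. In the same 3 settings Ccng1 at 10 Hz became -0.0875, -0.0879, and -0.0875, Bax at 10 Hz -0.0126, -0.0127, and -0.0126, and Phlda3 at 10 Hz -0.0914, -0.0916, and -0.0914. With total count scaling Ccng1 at 10 Hz became -0.0128 and Phlda3 -0.0106, and with the covariate they became -0.0019 and -0.0252. With single libraries left out, values ranged from -0.0724 to 0.0216 for Cdkn1a and from -0.1291 to 0.1036 for Trp53inp1 at 4 Hz, and from -0.0511 to 0.0669 for Ccng1 and from -0.0714 to 0.1121 for Phlda3 at 10 Hz.

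Replicate numbers were not used as pairs, since the labels give no shared origin and 10 of 36 pairs with the same number had a correlation of deviations above 0.1 (range -0.184 to 0.362). As a hint from the data and not the design, 10 of 24 libraries resembled their own number most. With the replicate block 6, 6, and 1 members passed at 1, 4, and 10 Hz against control, beside 37.2%, 41.3%, and 6.22% of all genes. Between frequencies, in the order 4 against 1, 10 against 1, and 10 against 4 Hz, 1, 2, and 2 members passed. The shares of all genes there were 14.2%, 38.4%, and 25.2%.

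With 6 libraries a condition, the 95% interval for Bbc3 at 4 Hz ran from -0.95 to -0.16 and that for Trp53inp1 from -0.40 to 0.33. The size of the difference in these genes is therefore known only loosely. The smallest detectable difference was not computed. Which libraries were ribodepleted is not stated. The calls of 1 and 4 Hz against control rest on libraries that also differ in small RNA share, whereas the shares of 1 and 4 Hz overlap.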
